A study of Mus musculus with 18 samples.

Results

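The cytosolic ribosomal protein genes were followed in the left ventricle of mice after ischaemia and reperfusion (IR). A gene was taken as a member when its symbol was Rpl or Rps with a number and at most 1 letter x, l or a, or was Rplp0, Rplp1, Rplp2 or Rpsa, and when its counts, scaled to the total of the library (CPM), reached 1 CPM in at least 3 libraries. CPM values printed below are scaled by TMM as well, except those of Sesn2. Of 24421 symbols in the count tables, 81 fitted the name and 78 fitted both rules, 46 of the large and 32 of the small subunit. The 3 symbols left out were Rpl10l and Rpl26, each with 0 counts in all 18 libraries, and Rpl39l, a paralogue of Rpl39, with 75 counts over the 18 libraries. All 78 members passed the filter on low counts, so none was lost before testing.

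Each ribosomal protein gene encodes 1 building block of the ribosome, and the blocks are needed in equal numbers, so their mRNAs are kept at related levels. Most of these mRNAs start with a C followed by a run of pyrimidines, the terminal oligopyrimidine (TOP) tract, through which the kinase complex mTORC1 controls their translation. Sestrin 2, the product of Sesn2, is a stress-induced protein that restrains mTORC1 when leucine is short. In the heart, ribosome production is known to increase when cardiomyocytes grow under load.

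Whole left ventricles of C57BL/6 mice were sequenced as poly(A)-selected, stranded libraries, 3 for each of 6 groups. The Sesn2-KO mice (Sesn2-/-) were 3 to 4 months old, the aged wild-type (WT) mice 24 to 26 months and the young WT mice 3 to 4 months. In each kind of mouse, IR hearts had the left anterior descending artery closed for 45 min and reopened for 24 h, and sham hearts had the chest opened with no closure. The Sesn2-KO mice were bred by the submitters, while the suppliers were Charles River for the aged and Jackson for the young WT mice, so source and age or genotype cannot be told apart. The labels name no tissue to which the Sesn2 deletion is limited. No label ties samples to a litter, batch or day, and p-values cover only the spread among these libraries.

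Gene counts ran from 9404531 to 14458047 per library. Sesn2 itself had 0 to 5 counts in the 6 Sesn2-KO libraries and 2.50 to 6.03 CPM of the plain library total in the 12 WT libraries. The 8 cardiomyocyte markers (Myh6, Tnnt2, Tnni3, Actc1, Myl2, Pln, Ryr2 and Mybpc3) all had counts in every library of this heart tissue. Their summed level was 29015 to 35508 CPM in IR libraries and 33242 to 41823 CPM in sham libraries. In 1 library of each group, long transcripts stood above and short ones below their group's levels: the gene-wise rank correlation of the library's deviation with transcript length was 0.31 to 0.47 in these 6 libraries and -0.42 to -0.01 in the other 12. These length-tilted libraries are replicate 3 of Sesn2-KO IR, Sesn2-KO sham, aged IR and young IR, and replicate 1 of aged sham and young sham.

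The members took 1.87% to 3.69% of all gene counts in a library. Their share was 3.35% ± 0.566 in Sesn2-KO IR and 2.88% ± 0.478 in Sesn2-KO sham hearts, 3.01% ± 0.364 in aged IR and 2.22% ± 0.276 in aged sham hearts, and 2.74% ± 0.176 in young IR and 2.41% ± 0.550 in young sham hearts (SD, n = 3 each). In each kind of mouse the mean share was higher after IR, and the groups overlapped in the Sesn2-KO and young mice. Large-subunit counts stood to small-subunit counts as 1.40 to 1.49 in all 18 libraries, so the balance of the subunits moved little.

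Per kilobase of transcript, the median member stood at 472 CPM (quartiles 310 and 601), and 66 of 78 members lay within 2-fold of that median. The highest were Rplp1 at 1055 CPM per kilobase, Rps15 at 1034 and Rps12 at 830. Rplp1 and Rplp2 (821) pair up on the stalk of the large subunit, which draws in the elongation factors, and Rplp0 (712) anchors them there. The lowest were Rpl30 at 1.27, Rps27 at 2.60 and Rpl34 at 5.50 CPM per kilobase, which rest on 163, 200 and 587 counts over the 18 libraries. Of their 100-base windows, 32.5% (Rpl30), 98.4% (Rps27) and 31.0% (Rpl34) also occur in other annotated genes, and the part of lost shared reads in these low counts was not tested. The next lowest was Rps4l at 37.9, which is annotated as a transcribed processed pseudogene (GRCm38 chr6:148354656-148355598, plus strand). Rps4x, the X-linked protein-coding gene of the same name stem, is a separate member.

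Ribosomal protein genes have many processed pseudogenes. In the GENCODE M21 transcripts, 71 of 78 members shared at least 1 window of 100 bases with another gene, 69 of them with a pseudogene, and 31 shared over 50% of their windows. Rpl3l, Rps27l and Rpl22 were among the 7 that shared none, while Rps12 shared 88.9% and Rpl3 79.4%. The counts of members with shared windows are therefore uncertain where the counting dropped or split such reads. The median log2 fold change of IR against sham, averaged over the 3 kinds of mice, was 0.24 in the 14 members with at most 10% shared windows and 0.28 in the 31 with over 50%.

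The start of the transcript was read from RefSeq (GRCm38.p6) as 30 bases, from 10 before the annotated start to 20 from it, which was found for 57 of 78 members. The windows below are from members described later and are shown for the pyrimidine runs near the start. Capitals mark the letters CTTTC, searched on the sense strand, with GAAAG as the same letters on the other strand.
Rps26, chr10:128626487-128626516 (minus strand): gcaagccgccggatcctCTTTCgagtcttg
Rpl12, chr2:32961702-32961731 (plus strand): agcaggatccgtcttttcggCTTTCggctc
Rps12, chr10:23787190-23787219 (minus strand): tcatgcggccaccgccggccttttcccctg
Rps6, chr4:86857348-86857377 (minus strand): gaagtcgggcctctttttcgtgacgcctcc
Rpl3l, chr17:24727816-24727845 (plus strand): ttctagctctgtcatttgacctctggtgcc
A gene with several annotated starts was scored over all of its windows. CTTTC occurred in 14 of 57 members (24.6%) and in 1183 of 26968 other genes (4.39%). On the other strand the letters occurred in 2 of 57 members (3.51%) and in 1163 other genes (4.31%). The windows of Rps12 and Rps6 hold pyrimidine runs of other letters. That of Rpl3l, at the first of its 2 annotated starts, holds neither CTTTC nor a long pyrimidine run. Of the 20 members with a window that passed the test in the mean IR comparison, 6 held CTTTC.

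Across the 3 kinds of mice, the members were on the whole higher in IR than in sham hearts. On the log2 CPM scale, the 78 members averaged 8.27 ± 0.27 in Sesn2-KO IR and 8.11 ± 0.23 in Sesn2-KO sham hearts. They averaged 8.20 ± 0.19 in aged IR and 7.75 ± 0.20 in aged sham hearts, and 8.03 ± 0.06 in young IR and 7.84 ± 0.36 in young sham hearts (SD, n = 3 each). The aged groups did not overlap, while the other pairs did. In bulk tissue, fewer cells of a type and less RNA per cell cannot be told apart.

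**Figure D1:**
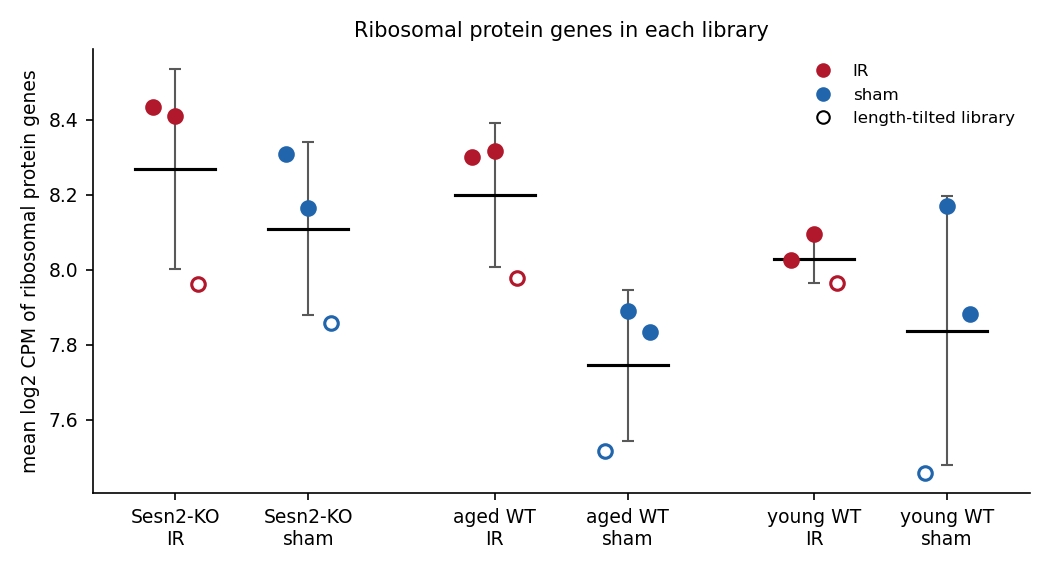
Mean log2 CPM of the 78 members (vertical axis) in each of 18 libraries. Groups run from Sesn2-KO IR on the left to young sham on the right. Red points are IR and blue points sham libraries, open points are the length-tilted ones, bars are group means and error bars SD (n = 3). The open point is the lowest of its group in 6 of 6 groups.

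The members moved as a block from library to library. The deviations below are those of the 75 members with a mean of at least 10 CPM. Within a library, their deviations from their own group means had an SD of 0.044 to 0.103 on the log2 scale. The mean of all 78 members lay at 7.46 to 8.17 in the young sham libraries. In the length-tilted library of the young sham group, 1 of 75 members was above its group mean, and in replicate 2 of that group all 75 were. The same count was 0 of 75 in the tilted libraries of Sesn2-KO IR, Sesn2-KO sham and aged IR hearts, 2 in that of aged sham and 15 in that of young IR hearts.

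In aged mice the members were higher after IR. The median log2 fold change was 0.45 (quartiles 0.41 and 0.50), against all-gene quartiles of -0.22 and 0.24, and 77 of 78 values were positive. In 59 of 78 members the 3 IR libraries all lay above the 3 sham libraries in CPM, against 16.5% of all tested genes, but the members share their libraries and move together. By edgeR's quasi-likelihood test with Benjamini-Hochberg adjustment over 13859 genes, 2 members rose and 0 fell, against 7.61% of all genes called and 5.36% that rose. These were Rpl3 and Rps26, so the share of members called (2.56%) was below that of all genes although 59 had an unadjusted p under 0.05.

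Rpl3 encodes a large-subunit protein that reaches toward the peptidyl transferase centre (chr15:80077791-80091868, minus strand). It stood at 567, 433 and 426 CPM in aged IR hearts, against 209, 316 and 255 CPM in aged sham hearts. All 3 IR values were above all 3 sham values. The log2 fold change was 0.87 ± 0.24 (SE; adjusted p = 0.0364, edgeR).

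Rps26 encodes a small-subunit protein near the mRNA exit channel and is mutated in some human Diamond-Blackfan anaemia (chr10:128624534-128626747, minus strand). It stood at 238, 249 and 193 CPM in aged IR hearts, against 130, 164 and 148 CPM in aged sham hearts, with no overlap. The log2 fold change was 0.62 ± 0.17 (SE; adjusted p = 0.0330, edgeR). Without the 6 length-tilted libraries, neither Rpl3 nor Rps26 passed the threshold, and the median of all members was 0.43.

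In young mice the median log2 fold change was 0.15, with 76 of 78 positive, and 0 members were called, against 6.07% of all genes (edgeR). The unadjusted p was under 0.05 for 2 members, Rpl3 and Rps26. DESeq2 called 1 member and limma voom 3, with no share of all genes given for those tests. Rpl3 stood at 311, 509 and 495 CPM in young IR hearts, against 187, 315 and 281 CPM in young sham hearts, which overlap by 1 library. Its log2 fold change was 0.75 ± 0.24 (SE; adjusted p = 0.0758, edgeR). Rps26 stood at 192, 218 and 209 CPM in young IR hearts, against 120, 189 and 163 CPM in young sham hearts, and was the 1 member of 78 with no overlap, against 12.6% of all genes higher with no overlap. The young median rests on 1 library: it was -0.01 without young sham replicate 1, 0.34 without young sham replicate 2, and 0.00 without the 6 length-tilted libraries.

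In Sesn2-KO mice the median was 0.17, with 75 of 78 positive. No member was called by edgeR, where 0% of all genes were called, and 2 members, Rps26 and Rpl3l, had an unadjusted p under 0.05. DESeq2 called 0 members and limma voom 1, with no share of all genes given for those tests. Rpl3l stood at 271, 146 and 189 CPM in Sesn2-KO IR hearts, against 295, 361 and 291 CPM in Sesn2-KO sham hearts, with all IR values below all sham values. It was the 1 member lower with no overlap, against 7.65% of all genes, and Rpl15 was the 1 member higher with no overlap, against 10% of all genes. The log2 fold change of Rpl3l was -0.65 ± 0.23 (SE; adjusted p = 0.228, edgeR).

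The IR response of aged mice minus that of young mice, tested as an interaction, had a median of 0.30 over the members. No member was called by edgeR, DESeq2 or limma voom, 0 had an unadjusted p under 0.05, and 0% of all genes were called. The larger median in aged mice was therefore not shown to differ from that in young mice. Rpl34 (0.68 ± 0.39), Rps23 (0.41 ± 0.28) and Rps2 (0.29 ± 0.21) had the smallest p (SE; adjusted p = 1 each, edgeR). For Sesn2-KO minus young mice the median was 0.00, with 43 of 78 positive, and again 0 members were called by edgeR, DESeq2 or limma voom and 0 had an unadjusted p under 0.05, against 0.0577% of all genes called.

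Averaged over the 3 kinds of mice, IR against sham had 9 libraries a side and a median of 0.26 (quartiles 0.22 and 0.31), with 77 of 78 positive. In this comparison 24 members rose and 1 fell (edgeR, adjusted p under 0.05), that is 32.1% of members against 26.7% of all genes in either direction. By direction, 30.8% of members rose against 15.8% of all genes, and 1.28% fell against 10.9%. The members that rose were 15 of 46 in the large subunit and 9 of 32 in the small subunit, with medians of 0.27 and 0.25 over all members of each.

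**Figure D2:**
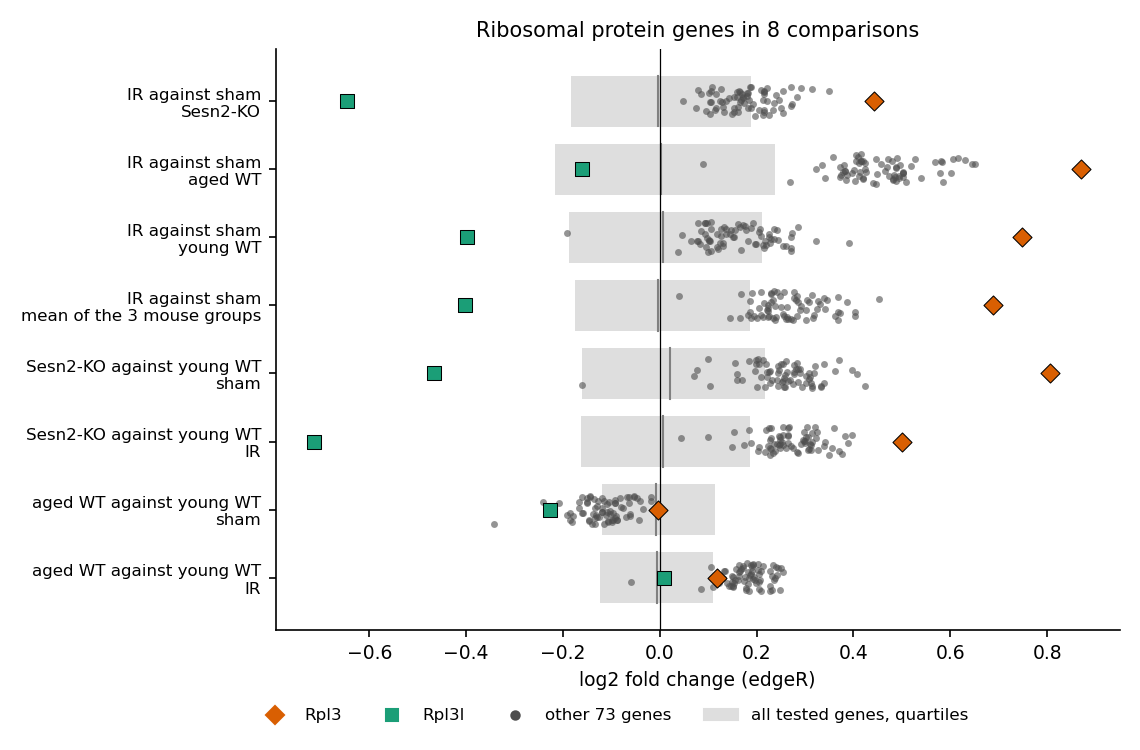
Log2 fold change (horizontal axis) of the 75 members with at least 10 CPM in 8 comparisons, listed down the page. Each point is a gene, the diamond is Rpl3, the square is Rpl3l, and the grey bar spans the quartiles of all tested genes with a line at their median. Most members lie in a narrow band around 0.45 in aged IR against sham, with Rpl3 at 0.87 to the right and Rpl3l at -0.16 to the left.

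Rpl3 again rose most in the mean comparison, by 0.69 ± 0.14 (SE; adjusted p = 0.00191, edgeR), and Rps26 by 0.45 ± 0.10 (adjusted p = 0.00265). They were followed by Rps27a, a small-subunit protein made as a fusion with ubiquitin, at 0.40 ± 0.13 (adjusted p = 0.0272). Rps12 of the small-subunit head rose by 0.40 ± 0.13 (adjusted p = 0.0302). Rpl12, at the base of the stalk, rose by 0.39 ± 0.12 (adjusted p = 0.0232).

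The values of these 3 genes were separated in aged mice. Rps27a stood at 452, 413 and 324 CPM in aged IR hearts, against 196, 287 and 275 CPM in aged sham hearts. Rps12 stood at 521, 524 and 382 CPM in aged IR hearts, against 246, 337 and 329 CPM in aged sham hearts. Rpl12 stood at 491, 456 and 366 CPM in aged IR hearts, against 230, 319 and 298 CPM in aged sham hearts. In each of them the lowest IR value was that of the length-tilted library.

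Among stalk proteins, Rplp0 rose in the mean comparison by 0.24 ± 0.08 (SE; adjusted p = 0.0410, edgeR), while Rplp1 at 0.33 ± 0.12 (adjusted p = 0.0512) and Rplp2 at 0.24 ± 0.10 (adjusted p = 0.0898) missed the threshold. Rpl10, which joins late in the making of the large subunit, rose by 0.30 ± 0.10 (adjusted p = 0.0268). Rpl39, a small protein of the exit tunnel, rose by 0.35 ± 0.12 (adjusted p = 0.0446). Rpl5 at 0.22 ± 0.09 (adjusted p = 0.0889) and Rpl11 at 0.27 ± 0.12 (adjusted p = 0.0883), which bind the 5S RNA and, outside the ribosome, the p53 regulator Mdm2, were not called.

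In the small subunit, Rpsa, also known as the laminin receptor, rose by 0.37 ± 0.11 (SE; adjusted p = 0.0183, edgeR). It stood at 922, 868 and 745 CPM in aged IR hearts, against 501, 628 and 560 CPM in aged sham hearts, with no overlap. Rps6, the substrate of the S6 kinases downstream of mTORC1, rose by 0.26 ± 0.09 (adjusted p = 0.0380). Rps19, often mutated in human Diamond-Blackfan anaemia, had 0.34 ± 0.13 (adjusted p = 0.0688) and Rps4x had 0.18 ± 0.11 (adjusted p = 0.247). Rps27, on 200 counts in all, had 0.30 ± 0.27 (adjusted p = 0.439), and its paralogue Rps27l had 0.26 ± 0.11 (adjusted p = 0.103).

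The calls in the mean comparison depended on single libraries. Leaving out 1 library at a time gave 6 to 50 called members, 6 without aged sham replicate 1 or Sesn2-KO IR replicate 2 and 50 without young sham replicate 2. Rpl3, Rps26, Rpl15, Rpl41 and Rpsa were among the 6 members called in every one of these 18 fits. Rplp0 and Rpl39 were called in only 5 of the 18, Rps6 in 7, Rps12 in 9 and Rpl10 in 12. Without the 6 length-tilted libraries, the calls of Rplp0, Rps6, Rpl10, Rpl15 and Rpsa were lost. All 25 kept their sign in all 18 fits. The share of all genes called in these fits is not given.

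Rpl3l was the 1 member that fell in the mean comparison. It is a paralogue of Rpl3 made mainly in heart and skeletal muscle, and in muscle its mRNA is known to drop when that of Rpl3 goes up. The beginnings of the coding sequences are shown because the pair must be told apart in counting. Each gene has 10 exons; the first 90 of 1212 coding bases of Rpl3 and of 1224 of Rpl3l are given from GENCODE M21, with the 21 differing bases in capitals.
Rpl3: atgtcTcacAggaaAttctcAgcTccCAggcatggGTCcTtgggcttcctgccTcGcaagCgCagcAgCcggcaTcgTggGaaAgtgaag
Rpl3l: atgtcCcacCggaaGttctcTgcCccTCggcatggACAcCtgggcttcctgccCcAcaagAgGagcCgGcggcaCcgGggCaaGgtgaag
Over the aligned coding bases 76% were identical (915 of 1204), and the longest identical run was 22 bases. The 2 genes share no window of 100 bases, and the windows that Rpl3 shares are all with 7 pseudogenes.

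Rpl3l (chr17:24727820-24736143, plus strand) had a log2 fold change of -0.40 ± 0.13 in the mean comparison (SE; adjusted p = 0.0332, edgeR). It stood at 275, 409 and 315 CPM in aged IR hearts, against 385, 378 and 354 CPM in aged sham hearts, and at 445, 299 and 248 CPM in young IR hearts, against 378, 498 and 432 CPM in young sham hearts. These groups overlapped, unlike those of Sesn2-KO mice given above. The call was kept in 9 of 18 fits that left out 1 library and was lost without the 6 length-tilted libraries. Per 1000 CPM of the 8 cardiomyocyte markers, Rpl3l stood at 6.75 ± 1.64 in Sesn2-KO IR and 9.35 ± 1.31 in Sesn2-KO sham hearts, 9.82 ± 1.13 in aged IR and 8.96 ± 0.562 in aged sham hearts, and 9.76 ± 2.27 in young IR and 10.5 ± 1.60 in young sham hearts (SD, n = 3 each). On this scale the aged IR mean was above the aged sham mean.

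**Figure D3:**
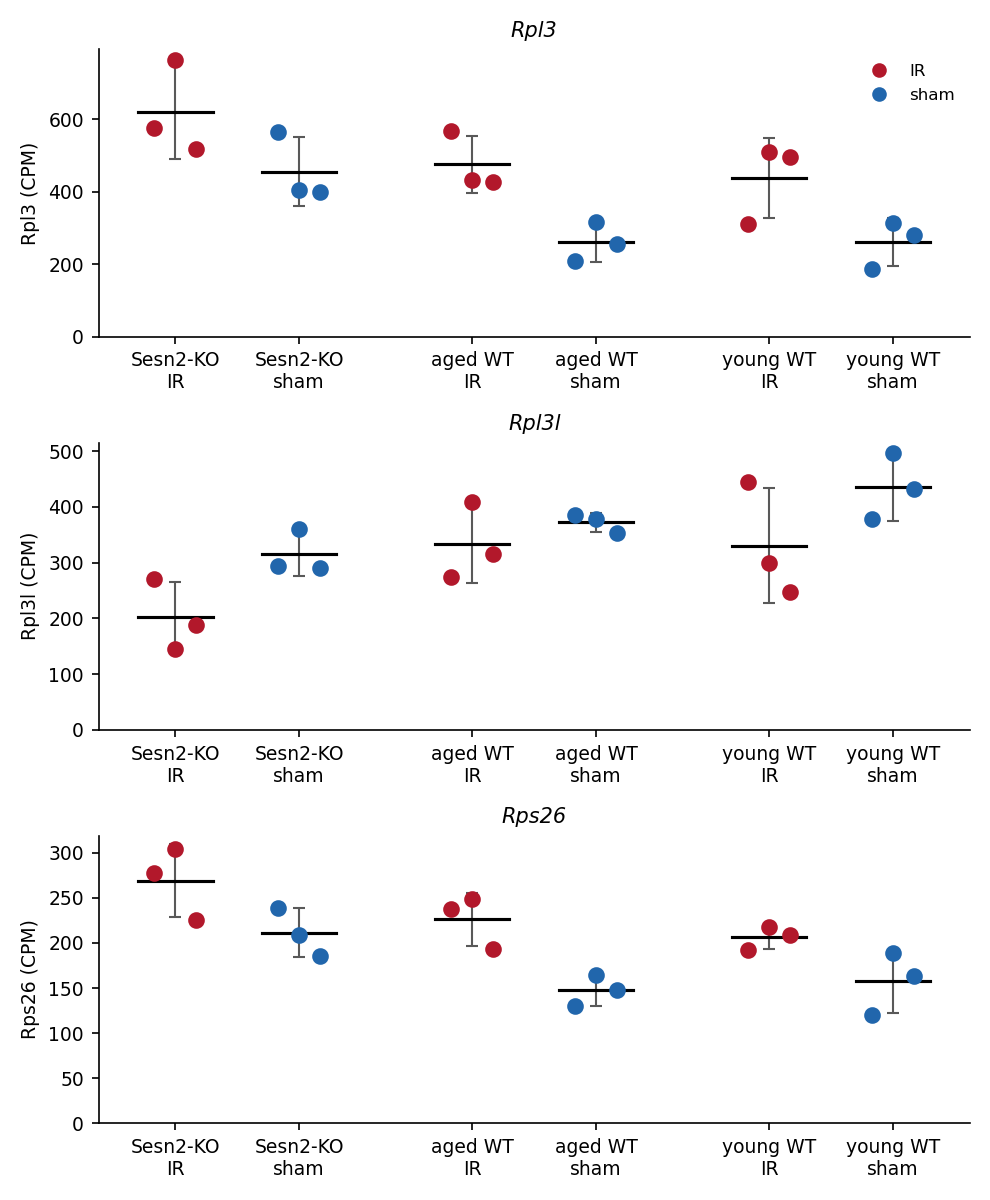
CPM (vertical axis, from 0) of Rpl3, Rpl3l and Rps26 in each of 18 libraries, by group from Sesn2-KO IR on the left to young sham on the right. Red points are IR and blue points sham libraries, and bars are group means with SD (n = 3). Rpl3 in aged IR hearts lies between 426 and 567 CPM, above its 209 to 316 CPM in aged sham hearts.

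The ratio of Rpl3l to Rpl3 per kilobase of transcript sets the pair side by side within a library, so that scaling between libraries drops out. The ratio was 0.461, 0.187 and 0.358 in Sesn2-KO IR hearts, against 0.512, 0.878 and 0.717 in Sesn2-KO sham hearts. It was 0.476, 0.928 and 0.727 in aged IR hearts, against 1.81, 1.18 and 1.36 in aged sham hearts. It was 1.41, 0.577 and 0.492 in young IR hearts, against 1.98, 1.55 and 1.51 in young sham hearts. By counts per kilobase, Rpl3l thus stood above Rpl3 in all 6 WT sham libraries and in 1 of 6 WT IR libraries. Rpl3 stood above Rpl3l in all 6 Sesn2-KO libraries. Rpl3 shares 79.4% of its windows with pseudogenes and Rpl3l shares none, so a loss of shared reads would lower Rpl3 alone. The part of such reads was not tested, so these counts do not settle which mRNA was the more abundant. In each kind of mouse every IR ratio was below every sham ratio.

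As log2, the ratio differed by -1.13 in Sesn2-KO, -1.06 in aged and -1.18 in young mice, IR minus sham. Each of these had an exact two-sided permutation p of 0.1, the smallest that 3 against 3 allows (adjusted p = 0.133 over 8 ratio tests). Averaged over the 3 kinds of mice and permuted within them, the difference was -1.12, or 0.459-fold, with an exact p of 0.00025, the smallest that 8000 arrangements allow (adjusted p = 0.002). It stayed negative with each library left out in turn. The ratio was chosen with the opposite directions of the 2 genes already seen, so these p-values are not independent support for them.

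Set against young WT, the log2 ratio was also lower in Sesn2-KO hearts, with a difference of -1.23 after IR and of -1.28 in sham hearts (exact p = 0.1 each, the smallest possible; adjusted p = 0.133). Sesn2-KO and young ratios did not overlap in either. By counts per kilobase, Rpl3l made up 24.6% ± 8.0 of the pair in Sesn2-KO IR and 42.7% ± 13.8 in young IR hearts. In sham hearts the values were 40.8% ± 6.5 in Sesn2-KO and 62.5% ± 3.4 in young mice (SD, n = 3 each). Between aged and young mice the log2 ratio differed by -0.10 after IR (exact p = 0.8; from -0.40 to 0.36 leaving out 1 library) and by -0.23 in sham hearts (exact p = 0.4), so no difference beyond the spread was found.

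**Figure D4:**
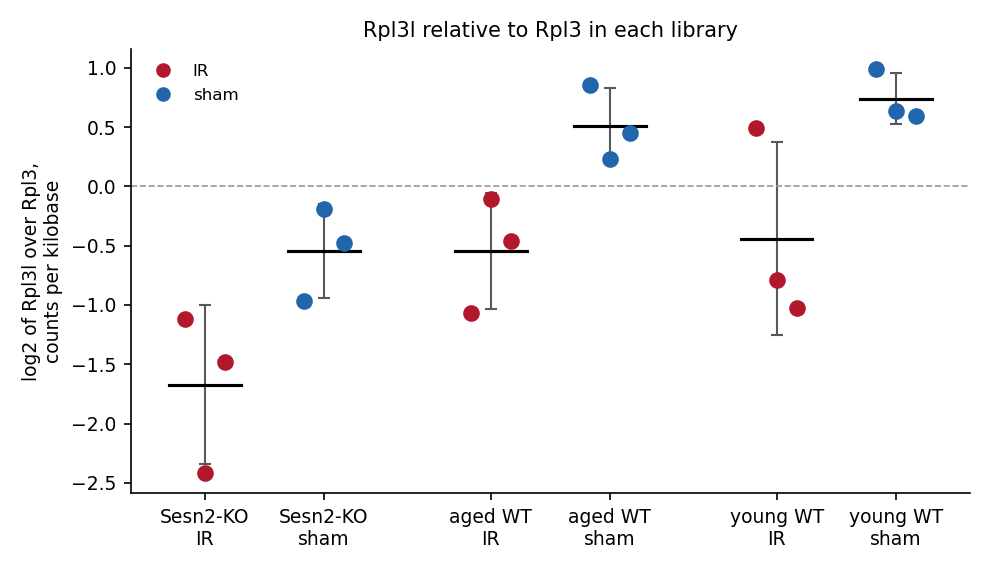
Log2 ratio of Rpl3l to Rpl3 per kilobase (vertical axis) in each of 18 libraries. Groups run from Sesn2-KO IR on the left to young sham on the right. A value of 0 means equal counts per kilobase. Red points are IR and blue points sham libraries, and bars are group means with SD (n = 3). The means are -1.67 in Sesn2-KO IR and -0.55 in Sesn2-KO sham hearts, and -0.44 in young IR and 0.74 in young sham hearts.

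Measured against the mean of the 75 members in the same library, 72 members stayed within 0.2 of the block (log2) in the mean IR minus sham difference. Rpl3 stood 0.42 above it and Rpl3l 0.70 below it, at -0.70. The third outside this range was Rps4l at -0.23, the pseudogene-annotated member. Rpl3 was separated from its sham values in aged (0.43) and young mice (0.56) and overlapped in Sesn2-KO mice (0.28). Both separations were narrow. The lowest IR and highest sham values were 0.124 and 0.108 in aged mice, and -0.038 and -0.057 in young mice. Rpl3l was lower with no overlap in all 3, at -0.85 in Sesn2-KO, -0.63 in aged and -0.62 in young mice, though in young mice the highest IR value (0.478) and the lowest sham value (0.483) nearly touched. Rps18, of the small-subunit head, was the 1 member higher with no overlap in all 3 kinds of mice. It was higher by 0.07 in Sesn2-KO, 0.13 in aged and 0.12 in young mice. In Sesn2-KO mice its lowest IR value (0.269) and highest sham value (0.266) nearly touched. The share of other genes separated in this way was not computed.

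**Figure D5:**
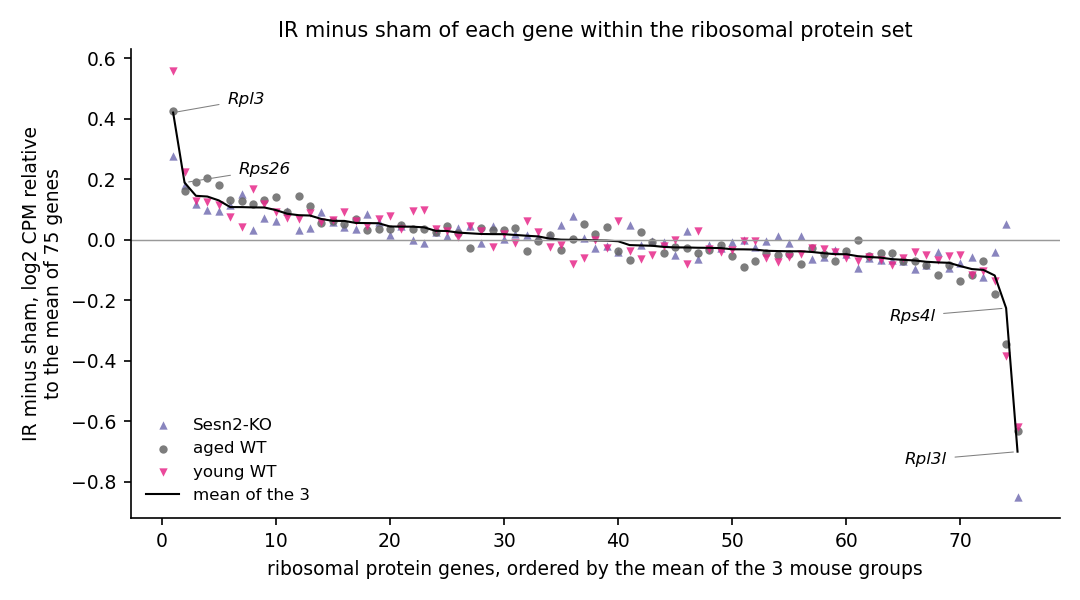
IR minus sham difference in log2 CPM relative to the mean of the 75 members (vertical axis), with genes in order of the mean along the horizontal axis. Symbols are Sesn2-KO, aged WT and young WT mice, and the line is their mean. By the line, Rpl3 at 0.42 and Rpl3l at -0.70 stand at the ends, and 72 of 75 genes lie within 0.2 of the block.

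Between Sesn2-KO and young WT hearts no member passed the test, while most fold changes were positive. After IR the median log2 fold change was 0.27 with 76 of 78 positive, and in sham hearts it was 0.26 with 76 of 78 positive. After IR, 0 members were called by edgeR, DESeq2 or limma voom, against 0.433% of all genes by edgeR, and 2 had an unadjusted p under 0.05. In sham hearts 0 were called by edgeR, against 5.11% of all genes, and 3 had an unadjusted p under 0.05 (Rpl3, Rps26 and Rps6). There DESeq2 called 1 and limma voom 3, with no share of all genes given for those tests. After IR, 3 members (Rpl3, Rps26 and Rpl15) were higher with no overlap, against 7.01% of all genes. In sham hearts Rpl3 and Rpl34 were higher with no overlap, against 15.1% of all genes, and Rpl3l was lower, against 10.6%.

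Rpl3 led the sham comparison. It stood at 566, 404 and 398 CPM in Sesn2-KO sham hearts, against 187, 315 and 281 CPM in young sham hearts, with no overlap. The log2 fold change was 0.81 ± 0.24 (SE; adjusted p = 0.0632, edgeR). After IR it stood at 577, 765 and 518 CPM in Sesn2-KO hearts, against 311, 509 and 495 CPM in young hearts, at 0.50 ± 0.24 (adjusted p = 0.398). Rps26 had 0.42 ± 0.16 (adjusted p = 0.163) in sham hearts, and Rps6 0.33 ± 0.15 (adjusted p = 0.238). Rpl3l had -0.71 ± 0.23 (adjusted p = 0.210) after IR and -0.47 ± 0.23 (adjusted p = 0.283) in sham hearts. In the same sham hearts all 8 neutrophil markers were higher in Sesn2-KO mice, with a summed level of 40.9 to 93.2 CPM in Sesn2-KO and 6.45 to 8.48 CPM in young hearts, and 3 of 8 macrophage markers (Mrc1, Msr1 and Cd68) were higher. The 8 cardiomyocyte markers summed to 33242 to 33812 CPM in Sesn2-KO sham and 40285 to 41796 CPM in young sham hearts, with 0 of 8 called. After IR no marker of these 3 cell types was called by edgeR between Sesn2-KO and young hearts. The part of these cells in the values of Rpl3 and Rpl3l was not tested. The sham and IR comparisons use different libraries, but the young sham group also enters the IR comparison of young mice.

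Between aged and young hearts no member was called. Against young hearts, aged hearts had a median of 0.18 after IR (76 of 78 positive) and of -0.11 in sham hearts (1 of 78 positive). In both, 0 members were called by edgeR, DESeq2 or limma voom and 0 had an unadjusted p under 0.05, against 0.0649% of all genes called after IR and 0.152% in sham hearts. The sham median was -0.28 without young sham replicate 1 and 0.07 without young sham replicate 2, so its sign rested on single libraries. Among the smallest p after IR were those of Rpl34 (0.50 ± 0.27) and Rps27 (0.65 ± 0.47), and the smallest in sham hearts were those of Rps4l (-0.34 ± 0.21), Rps2 (-0.21 ± 0.15) and Rps27l (-0.24 ± 0.20) (SE; adjusted p = 1 each, edgeR).

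Transcript length went with the members' level among libraries. In 6 of 6 groups the length-tilted library had the lowest mean of the members, whose transcripts are short. Within the 6 tilted libraries the slope on length and the members' deviation had Pearson's r of -0.73 (exact permutation p = 0.0972) and Spearman's rho of -0.83 (exact permutation p = 0.0583), and r was -0.07 without the 2 farthest libraries, so it rested on those. Within the other 12 libraries r was -0.59 (permutation p = 0.0357) and rho -0.55 (permutation p = 0.0681), and r was -0.61 without the 2 farthest. The 4 adjusted p-values lay between 0.0908 and 0.0972, and no pooled value is given because the libraries fall into separate clusters. Both measures are deviations from group means, which ties the libraries of a group to each other. The permutations took no account of group, so these p-values are only a rough guide.

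Fold changes were also set against the longest transcript of each gene, as a description, since all genes share the same libraries and are not independent. In IR against sham, Spearman's rho of log2 fold change with this length was -0.07 in Sesn2-KO, -0.24 in aged and -0.11 in young mice and -0.16 in the mean over 13267 other genes. Over the 75 members it was -0.04 in Sesn2-KO, -0.01 in aged and 0.10 in young mice and 0.03 in the mean. By the principal transcript the members' rho was -0.11, -0.15, 0.04 and -0.09 in the same order, so within the members no trend held its sign across lengths and mice. Over other genes the sign differed between comparisons as well, at -0.15 in Sesn2-KO against young sham hearts and 0.07 in aged against young sham hearts. Other genes whose longest transcript is under 750 bases (211 genes) had a median of 0.18 in aged IR against sham, and those over 3000 bases (7824 genes) one of -0.05.

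Other short and abundant genes were set beside the members, matched roughly in length and level only. They were not matched for the cell types that express them. The 228 other genes with a principal transcript under 1000 bases and at least 100 CPM had medians of -0.04 in Sesn2-KO, 0.17 in aged and -0.06 in young IR against sham, and of 0.03 in the mean. The members' medians in the same comparisons were 0.17, 0.45, 0.15 and 0.26. The members thus lay above the short genes in each comparison, and this difference was not tested.

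Fits with a length slope per library as a covariate gave different answers by how the slope was taken. With the slope of each library's deviation from the mean of all 18, a choice made after seeing the data, the members' medians were 0.11 in Sesn2-KO, 0.19 in aged and 0.06 in young mice and 0.12 in the mean. In that fit 28 members rose in the mean comparison, against 21.6% of all genes, and 3 in aged mice, against 9.73%. With the slope of the deviation from the library's own group, which leaves differences between groups in place, the medians were 0.17, 0.45, 0.19 and 0.27 in the same order. In that fit 73 members rose in the mean comparison, against 21.4% of all genes, and 73 in aged mice, against 11.7%.

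Other ribosome genes gave the same kind of comparison. Of 8 ribosomal protein genes named outside the rule, 7 were tested, with a median of 0.26 in the mean comparison. Of these, 3 rose: Rpl36al, a paralogue of Rpl36a, by 0.39 ± 0.09 (SE; adjusted p = 0.00361, edgeR), Rpl7l1 by 0.26 ± 0.08 (adjusted p = 0.0295) and Rpl22l1, a paralogue of Rpl22, by 0.47 ± 0.16 (adjusted p = 0.0387). Rpl36al was called in 18 of 18 fits that left out 1 library, Rpl7l1 in 10 and Rpl22l1 in 7. The call of Rpl7l1 was also lost without the tilted libraries and with no filter, and that of Rpl22l1 with upper-quartile scaling and with no filter. Rpl22 itself had 0.15 ± 0.09 (adjusted p = 0.271). The 77 mitochondrial ribosomal protein genes, whose ribosomes translate the mitochondrial genome, had a median of -0.04 in the mean and of 0.06 in aged mice, and 2 rose and 2 fell in the mean. Mrpl3, a large-subunit protein of the mitochondrial ribosome, fell by 0.35 on the log2 scale (SE 0.05; adjusted p = 0.000272).

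Of the other lists, that of ribosome assembly held the most calls. Of its 41 genes, 26 rose and 0 fell in the mean comparison, with a median of 0.28, against 15.8% of all genes that rose. Nhp2, a core protein of the box H/ACA particles that modify ribosomal RNA, stood at 40.2, 48.9 and 53.3 CPM in young IR hearts, against 20.6, 35.3 and 29.6 CPM in young sham hearts, with no overlap. It rose by 0.76 ± 0.12 in the mean comparison (SE; adjusted p = 0.000435, edgeR). Gar1 of the same particles rose by 0.50 ± 0.09 (adjusted p = 0.000865) and Nip7, a large-subunit assembly factor, by 0.45 ± 0.08 (adjusted p = 0.000968). Of 20 RNA polymerase I genes, 4 rose and 0 fell with a median of 0.07, among them Znrd1, a polymerase subunit, by 0.31 ± 0.07 (adjusted p = 0.00497).

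Translation factors and other genes with TOP mRNAs formed a list of 21. Of these, 5 rose and 0 fell in the mean comparison, and their median was 0.07, beside 0.26 for the members. Pabpc1, the poly(A)-binding protein, stood at 252, 219 and 242 CPM in aged IR hearts, against 158, 147 and 166 CPM in aged sham hearts. It rose by 0.54 ± 0.07 in the mean comparison (SE; adjusted p = 5.25e-05, edgeR), and Npm1, a nucleolar chaperone, by 0.40 ± 0.07 (adjusted p = 0.000937). In sham hearts Pabpc1 also rose in Sesn2-KO against young mice, by 0.45 ± 0.12 (adjusted p = 0.0365).

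Of 19 genes that lead from mTORC1 to the ribosome, 2 rose and 2 fell in the mean comparison. Myc, a transcription factor that drives ribosome production, rose by 1.45 ± 0.20 (SE; adjusted p = 0.00014, edgeR), and Eif4ebp1, a translation repressor that mTORC1 inactivates, by 0.43 ± 0.09 (adjusted p = 0.00334). Tsc2, an inhibitor of mTORC1, fell by 0.23 on the log2 scale (SE 0.06; adjusted p = 0.00686), and Sesn1, a sestrin, fell by 0.42 (SE 0.11; adjusted p = 0.00908). Myc stood at 11.3, 13.7 and 15.6 CPM in Sesn2-KO sham hearts, against 4.23, 3.00 and 3.74 CPM in young sham hearts, and was higher by 1.88 ± 0.36 (adjusted p = 0.00763). Without the 6 length-tilted libraries the calls of Gar1, Nip7, Znrd1, Eif4ebp1 and Tsc2 were lost. These genes, assembly factors and members were measured in the same libraries, so their changes are not independent of each other.

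Markers of some other cells moved with the surgery as well as with the genotype in sham hearts. The summed level of 8 neutrophil markers was 101 to 179 CPM in Sesn2-KO IR and 40.9 to 93.2 CPM in Sesn2-KO sham hearts, 105 to 187 CPM in aged IR and 7.61 to 22.1 CPM in aged sham hearts, and 66.0 to 136 CPM in young IR and 6.45 to 8.48 CPM in young sham hearts. All 8 rose in the mean comparison, and Cxcr2 and Il1r2 were at 0 in some library. Of 8 macrophage and 8 fibroblast markers, 5 each rose and 0 fell. In the same comparison 15.8% of all genes rose and 10.9% fell. Of 8 endothelial and of 7 tested T and B cell markers, 0 rose and 1 fell in each list. Of 6 smooth muscle and pericyte markers 1 rose and 1 fell, and the 1 tested erythroid marker was not called. The 8 cardiomyocyte markers summed to 29015 to 32767 CPM in Sesn2-KO IR and 33242 to 33812 CPM in Sesn2-KO sham hearts, 31740 to 35508 CPM in aged IR and 40377 to 41823 CPM in aged sham hearts, and 32048 to 35418 CPM in young IR and 40285 to 41796 CPM in young sham hearts, and 3 of them fell (Myh6, Mybpc3 and Pln). The part of these cells in the members' differences was not tested.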

How the data were processed

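The deposited tables hold whole-number counts of reads per gene symbol, 1 per library, made by the authors. The genome build mm10 and the tools HTSeq, TopHat2, Bowtie2, SAMtools and FastQC are named per the submitters' processing notes; annotation, strand setting and versions were not given in the sources used here. Rows that name no gene stayed out of all totals: reads in no gene were 6.12% to 9.06% and ambiguous reads 0.631% to 0.759%. No 2 replicates held identical counts, and all pairs differed by more than sampling noise.

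Here, edgeR 4.0.16 (R 4.3.3) kept 13859 of 24421 genes (filterByExpr), scaled the counts by TMM and fitted 1 quasi-likelihood model to all 18 libraries, with 10 contrasts and Benjamini-Hochberg adjustment over all tested genes, and calls were made at adjusted p below 0.05. CPM was computed here from those scaled counts, except that the rule for members, the level of Sesn2 and the shares of counts used plain library totals. The mean of the 3 mouse groups weights them equally. Transcript lengths, shared windows and coding sequences came from GENCODE M21 (GRCm38), in which 23334 symbols (95.5%) were found once. Ratios were compared by exact permutation. limma 3.58.1 and DESeq2 1.42.0 served as alternatives, beside other scalings, no filter, covariates for length, a block for replicate number and the leaving out of libraries. The code was tested on simulated data. Named genes were a fixed set of paralogues and well-known members, up to 5 called at each end, the 3 with the smallest p where none was called and, of other lists, up to 3 with the smallest p; Rps18, Rpl15, Rpl41 and Rpl22 were named after their values were seen, and some genes that the rule names are not reported here. The members and lists were chosen with earlier results of these data known.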

Additional observations from a re-analysis of the deposited data

How the results depend on the processing

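The number of called members depended on the test and on single libraries. Apart from the length-slope fits described above, the share of all genes called is not given for the alternative fits. Their counts therefore do not say whether members differ from other genes. For IR against sham in aged mice, where 2 were called, the count was 0 with upper-quartile scaling and without the 6 length-tilted libraries, 9 with DESeq2, 59 with limma voom, 4 with the compared groups alone, 7 with the replicate block and 73 with each library's within-group length slope as a covariate. In young mice, where 0 were called, it was 1, 3, 4 and 2 with DESeq2, limma voom, the within-group slope and the overall slope. In Sesn2-KO mice it was 1 with limma voom. In the mean of the 3, where 25 were called, it was 16 with upper-quartile scaling, 50 with limma voom, 74 with the within-group slope and 12 without the tilted libraries. For Sesn2-KO against young sham hearts it was 1, 3, 28 and 1 with DESeq2, limma voom, the within-group slope and the overall slope, and after IR 1 with the within-group slope. Leaving out 1 library gave counts of 0 to 1 in young, 0 to 9 in aged, 6 to 50 in the mean, and 0 to 1 in Sesn2-KO against young sham hearts.

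The median of the members kept its sign in aged, Sesn2-KO and mean IR comparisons when 1 library was left out, at 0.35 to 0.56, 0.06 to 0.31 and 0.20 to 0.32. The overall slope was added after seeing the data, and the cause of these changes was not tested. The log2 ratio of Rpl3l to Rpl3 stayed negative, from -1.41 to -0.76 in Sesn2-KO, -1.28 to -0.80 in aged and -1.65 to -0.89 in young mice, and ran from -0.40 to 0.36 for aged against young after IR. Same-numbered replicates did not deviate together in all pairs of any comparison, so the numbers were not taken as pairs. Single correlations ran from -0.27 (aged against young IR, replicate 2) to 0.72 (Sesn2-KO IR against sham, replicate 3). A link between some of these libraries is therefore not excluded. A replicate block moved no other count past 1.5 times.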
